A study of Rattus norvegicus with 93 samples.

Results

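The respiratory chain genes of the nucleus were taken by symbol: subunits of complex I (Nduf genes of the A, B, C, S and V series), complex II (Sdha to Sdhd), complex III (Uqcr genes), complex IV (Cox4 to Cox8 genes) and complex V, the ATP synthase (Atp5 genes). This rule found 111 of the 38354 genes in the table. Complexes I to IV pass electrons from NADH and succinate to oxygen and, apart from complex II, pump protons across the inner mitochondrial membrane, and complex V uses the returning protons to make ATP. Most subunits are encoded in the nucleus, a few in mitochondrial DNA, and neurons, which spend much ATP on ion pumping, rely on this pathway. Of the 111 genes, RefSeq annotates 109 as protein coding. 19 encode core subunits that carry the redox centres, the quinone-binding parts, the large scaffold proteins of complex III or the catalytic F1 part of complex V. Another 59 encode the remaining subunits, most of them small accessory proteins. 8 encode alternative forms known from particular tissues or cell types (such as Cox4i2 and Cox7a1), and 25 are named as further copies of another subunit gene (such as Ndufb11b). This sorting was made after values had been seen and is used for description only.

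Outbred laboratory rats gave the polyadenylated RNA, taken from their rostromedial tegmental nucleus (RMTg), a brainstem nucleus of inhibitory neurons with projections to midbrain dopamine neurons. 92 libraries were used, 1 per animal, of 93 labelled samples; the sample without a column was not analysed here. All belong to 1 group, with no treatment, behaviour, genotype, sex or age in the labels, and the study's title places them in genomic work on avoidance learning in addiction. Animal identifiers fall into 6 number series (A to F) whose meaning is not stated. With no second group, the comparisons are between libraries: by number series, by depth, by the features that took the counts, and by the levels of cell type markers. P-values measure the spread between these animals only.

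Libraries fell into 3 kinds by what took their counts. In 32 libraries (kind 2) LOC120093067, annotated as a ribosomal RNA, and Zfp532 took 19.8% to 56.02% of the counts, in 11 (kind 3) Nif3l1 took 28.8% to 51.9%, and the other 49 (kind 1) were below both limits. In units of 1000000 estimated counts, library totals lay between 9.55 and 50.2 in kind 1, between 2.29 and 13.7 in kind 2, and between 1.72 and 8.43 in kind 3. Values are given as counts per 1000000 of a library's total (CPM), which are not adjusted for transcript length, so levels of different genes are not compared. All 11 RMTg inhibitory neuron markers (Gad1, Gata3, Sox14, Oprm1 and others) passed the filter on low values, with a summed level of 867 to 1309 CPM in kind 1. The 12 dopaminergic markers also passed, at 396 to 2586 CPM. In such tissue, fewer cells of a type and less RNA per cell cannot be told apart.

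Before the results, 1 library of kind 1 has to be named, because it stands apart in these genes and bears on several of them. In this library of series C the mean over the 92 respiratory chain genes that passed the filter (a log2(CPM + 1) of 1 or more in 20% or more of the libraries) was 6.12, while the other 48 libraries of kind 1 lay between 7.08 and 7.74. Its total, 26.7 in units of 1000000 counts, its 26626 genes above 0 and its 3.11% of counts in the dominant pair were inside the range of kind 1. Results that depend on it are given with and without it, except where stated.

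In the 49 libraries of kind 1, all 19 core genes, all 59 other subunits, 6 of 8 alternative forms and 8 of 25 copies passed the filter. Atp5f1b, the catalytic beta subunit of the ATP synthase, ranged from 683 to 1371 CPM with a median of 923. Cox6a1, the common form of a complex IV subunit, ranged from 373 to 1246 CPM with a median of 935. Sdha, the flavoprotein that oxidises succinate, ranged from 97.4 to 230.9 CPM with a median of 187.7. The library of lowest Cox6a1 is the one that stands apart, since without it the lowest value was 787 CPM.

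The other complex II genes were also measured in every library. Sdhb, the iron-sulphur subunit, lay between 174 and 290.2 CPM (median 235). Sdhc lay between 113 and 344.5 CPM (median 297) and Sdhd, the other membrane anchor, between 81 and 287 CPM (median 219.6). For both anchors the lowest value came from the library that stands apart, and the next lowest were 220.5 and 138 CPM.

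Alternative forms were low but present. Cox4i2, a form of subunit 4 known from lung and from vessel wall cells, had a median of 4.89 CPM (2.62 to 9.89). Cox7a1, a heart and muscle form, had 9.50 CPM (6.27 to 15.5), Cox6a2, another muscle form, 5.75 CPM (2.24 to 10.6), and Cox8b 2.77 CPM (0.411 to 10.04). Ndufa4l2 had 3.72 CPM (2.03 to 6.72) and Cox6b2, a testis form, 1.57 CPM (0.681 to 3.05). Cox7b2 and Cox8c, both known from testis, had medians of 0.076 and 0.337 CPM and did not pass the filter. The other 17 genes that did not pass are copies, with medians from 0 to 0.513 CPM, and reads from near-identical subunit genes may be shared with them.

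Common forms with a tissue partner, and some related subunits, were measured in every library of kind 1. Cox4i1 ranged from 193 to 642 CPM (median 371), Cox6b1 from 194.5 to 871 CPM (median 452) and Cox8a from 98.8 to 846 CPM (median 516). Cox7a2 ranged from 55.9 to 548 CPM (median 300.1), Cox7a2l from 107 to 261 CPM (median 214) and Cox7b from 113.5 to 703 CPM (median 337). Ndufa4, a complex IV subunit despite its name, ranged from 122 to 1162 CPM (median 632.5). The 3 genes for the c subunit of the ATP synthase rotor had medians of 260.3 CPM (Atp5mc1), 125 CPM (Atp5mc2) and 521 CPM (Atp5mc3). Atp5if1, the inhibitor of the ATP synthase, ranged from 182.5 to 677 CPM (median 458). In each of these 11 genes the lowest value belonged to the library that stands apart.

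Respiratory chain genes were far lower in kind 2 than in kind 1. Over the 90 genes that passed the filter over all 92 libraries, the median of the difference between the kinds' medians was -3.25 on the log2(CPM + 1) scale, beside -0.88 over all 18948 genes that passed. 89 of the 90 were lower, beside 78.5% of all genes. Taking the 3 dominant features out of the totals moved the median over all genes by more than 0.1, to -0.31, and that of the respiratory chain genes to -2.40, with 87 of 90 lower beside 60.6% of all genes. The kinds were defined by library make-up, not by labels, so these differences are described and not tested. Median differences of marker lists were -0.89 (neuronal), -1.01 (oligodendrocyte) and -0.94 (astrocyte), near that of all genes. They were -2.06 (microglial) and -2.781 (erythroid), and the remaining lists lay between -1.097 (endothelial) and -1.356 (mural). Without the dominant features they were -0.089 (neuronal), -0.14 (oligodendrocyte), -0.19 (astrocyte), -1.39 (microglial) and -2.004 (erythroid). The remaining lists then lay between -0.3143 (fast-firing neuron) and -0.9257 (mural). Summed over its markers, the oligodendrocyte list had a median of 51450 CPM in kind 1 and 13660 CPM in kind 2. Xist counts exceeded those of Y-linked Ddx3y in 37 of 49 libraries of kind 1 and in 10 of 32 of kind 2. The part of cell types and of sex in the difference was not tested.

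The fall ran across all 5 complexes. Over their core and other subunits the median differences were -3.47 in complex I (36 genes), -3.07 in complex II (4), -3.27 in complex III (8), -3.53 in complex IV (12) and -3.13 in complex V (18). The most negative values were those of Atp5mc1 (-4.18), Uqcr11 (-4.18), Ndufv2 (-4.09), Atp5pb (-4.08), Ndufb1 (-4.07) and Atp5mpl (-4.03). Atp5mc1 had a median of 13.4 CPM in kind 2 (4.33 to 904.8) and 260.3 CPM in kind 1 (149 to 419). Its ranges overlapped, because some libraries of kind 2 were high. The 6 alternative forms had a median difference of -1.57 and the 6 copies of -0.49, which without the dominant features in the totals was 0.083. Genes of low level have little room to fall on the log2(CPM + 1) scale. With 0.5 in place of 1 added to the CPM, the alternative forms were at -1.961 and the copies at -0.518. The core genes moved less, from -3.055 to -3.075.

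**Figure D1:**
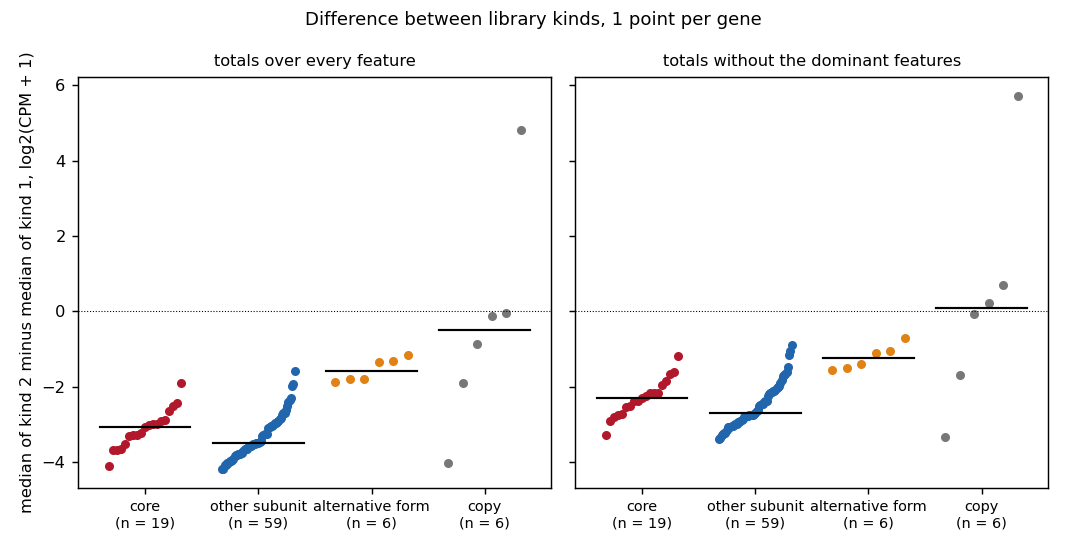
Difference between the medians of the 32 libraries of kind 2 and the 49 of kind 1, in log2(CPM + 1), 1 point per gene, for 90 respiratory chain genes sorted by class; black bars are class medians, and the right panel leaves Nif3l1, LOC120093067 and Zfp532 out of the totals. Core and other subunits all lie below 0 in both panels (class medians -3.05 and -3.48 on the left), and the single gene far above 0 is Ndufb11b at 4.83.

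In 11 of the 90 respiratory chain genes every library of kind 2 was below every library of kind 1, beside 8.24% of all genes. That share is not far above the background. 9 of the 11 are core genes, among them Sdha, Uqcrc1, Uqcrc2, Uqcrfs1, Atp5f1a and Atp5f1b. The other two are Atp5pb, of the ATP synthase stalk, and Ndufa9. Sdha had 9.38 to 90.6 CPM in kind 2 (median 24.2) against at least 97.4 CPM in kind 1. Uqcrc2, a scaffold protein of complex III, had 10.5 to 69.04 CPM (median 24.2) against at least 121.7 CPM. Without the dominant features in the totals 7 genes did not overlap, beside 2.99% of all genes. Leaving out the kind 1 library that stands apart gave 15 genes, beside 8.85% of all genes.

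For most subunits the highest value of kind 2 came from 1 of 2 libraries. These were picked for the highest mean over the respiratory chain genes in kind 2, so the counts that follow describe them and support nothing further. They belong to series B, hold 23.1% and 20.5% of their counts in the dominant pair, and have mean levels over the respiratory chain genes of 7.72 and 7.99, above or near the highest of kind 1. 1 of these 2 libraries had the highest value of kind 2 in 58 of the 59 other subunits and in 15 of the 19 core genes, beside 21.1% of all 18948 genes. In 43 of the 59 other subunits, but in 4 of the 19 core genes, that value lay above the highest library of kind 1; over all genes the share was 41.6%. Ndufb8, for example, reached 2171 CPM in kind 2 and 1021 CPM in kind 1, although its medians were 36.4 and 445 CPM. The mean of the 2 libraries was 1.90 times the kind 1 median for the median other subunit and 0.556 times for the median core gene, beside 0.591 times for the median of all genes.

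**Figure D2:**
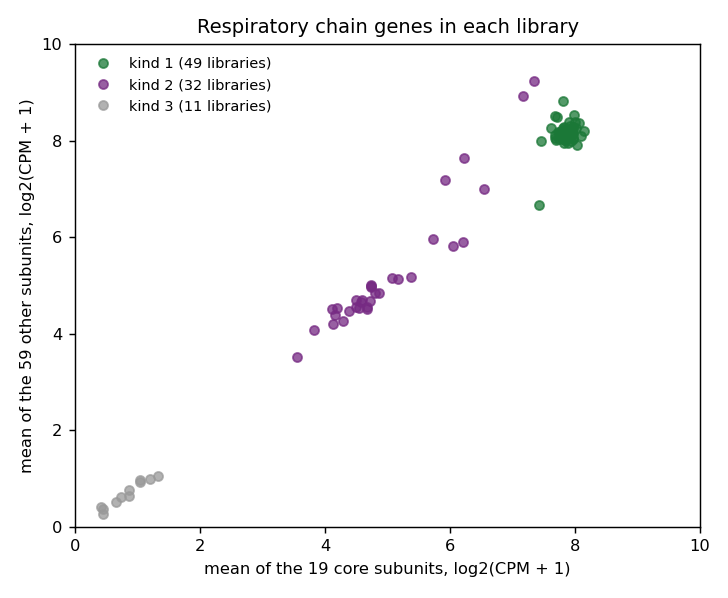
Mean log2(CPM + 1) of the 19 core genes (x axis) and of the 59 other subunits (y axis) in each of the 92 libraries, 1 point per library, coloured by kind. Kind 1 forms a tight group except for 1 library low on the y axis (6.66), kind 2 runs from 3.53 up to 9.23 on that axis, and kind 3 lies near the origin.

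Within the 32 libraries of kind 2, the genes were lower where the dominant pair took more counts (limma's moderated slope on log2 of the pair's share, totals without the dominant features). 73 of 91 fell at an adjusted p under 0.05, beside a background of 17.1% of 20094 genes, and 1 rose, beside 5.57%. The steepest by p was Cox5a, a complex IV subunit, at -0.77 ± 0.17 (SE) per SD of the share (adjusted p = 0.00633, n = 32, limma). With the number series as a covariate 73 fell, beside 19.6% of all genes, and 1 rose, beside 6.15%. Without the 2 libraries of high respiratory chain level 0 fell and 0 rose (limma; 17 fell and 1 rose at an unadjusted p under 0.05), and over all genes 0.0791% fell and 0.376% rose, so that the calls rest on those 2 libraries.

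Where both kinds were present in number within 1 series, the difference was of like size. In series B, with 7 libraries of kind 1 and 18 of kind 2, the median was -3.08, and in series C, with 16 and 8, it was -3.54. The least negative differences outside the copies were those of Cox6b2 (-1.16), Cox7a1 (-1.32), Cox8b (-1.35) and Ndufc2 (-1.58). Cox6b2 and Cox8b are so low in kind 1 that the scale limits how far they can fall.

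Ndufb11b ran the other way. This gene on chromosome 7 is named after Ndufb11, an X-linked complex I subunit gene. It had 0.657 to 2.89 CPM in kind 1 (median 1.70), 5.15 to 328 CPM in kind 2 (median 75.7) and 0 to 2.64 CPM in kind 3 (median 0.520). Every library of kind 2 was above every library of kind 1, the only such case among the 90 respiratory chain genes, beside 0.338% of all genes. Ndufb11 itself had a median of 190.3 CPM in kind 1 and 25.8 CPM in kind 2. In counts, Ndufb11b had a median of 32.4 per library in kind 1 and 283 in kind 2. Within kind 1 it also rose with the share of the dominant pair, by 0.17 ± 0.035 (SE) per SD (adjusted p = 0.000594, n = 49, limma), and within kind 2 by 0.84 ± 0.24 (adjusted p = 0.015, n = 32, limma). Without the 2 libraries of kind 2 with high respiratory chain levels the slope was 0.50 and was not called (adjusted p = 0.248, limma). A further gene, LOC134479945, overlaps it by 164 bases in RefSeq and had medians of 0.603 and 4.0 CPM in the same kinds; whether reads are shared between them was not tested.

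**Figure D3:**
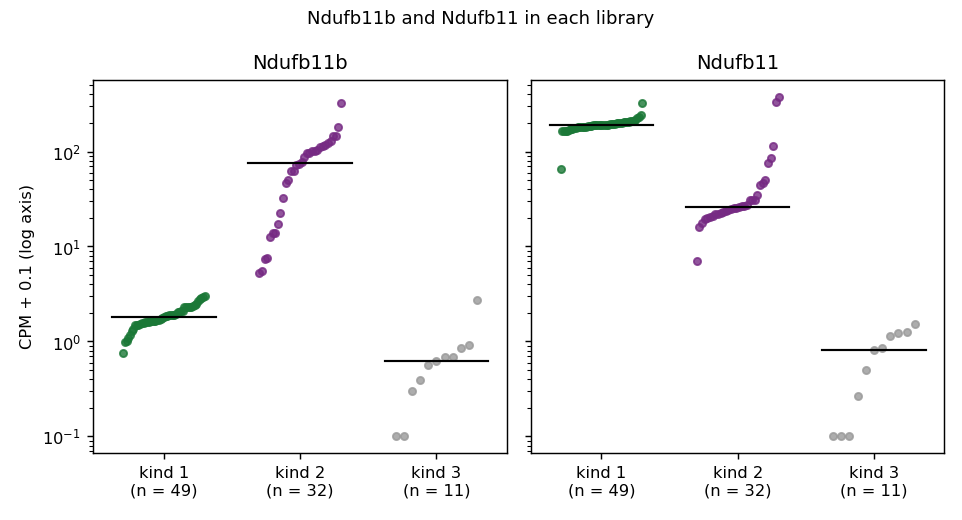
Level of Ndufb11b (left) and Ndufb11 (right) in each library by kind, in CPM plus 0.1 on a log axis; points are libraries in ascending order and bars are medians. Ndufb11b is at a median of 75.7 CPM in kind 2 with no overlap with kind 1, while Ndufb11 is lower in most libraries of kind 2 (median 25.8 CPM).

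The other copies split. Cox7a2l2 had a median of 240 CPM in kind 1 and 13.8 CPM in kind 2, a difference of -4.02. Atp5mkl1 (-0.87), Atp5mc2l1 (-0.11) and Ndufb3l3 (-0.047) lay near the value over all genes or above it. Ndufb3l3 had 3.14 to 13 CPM in kind 1 and 1.46 to 13 CPM in kind 2.

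In kind 3 these genes lay near the bottom of the scale. The median difference from kind 1 was -7.31, and in 88 of 90 genes every library of kind 3 was below every library of kind 1; this held for 86.7% of all genes, so the share is near the background. With median-of-ratios size factors (the median over genes of the ratio to each gene's geometric mean over libraries) the difference was -2.86, beside -1.20 over all genes, and 46 genes did not overlap, beside 15.3%. Atp5f1b had a median of 4.70 CPM in kind 3. Summed over its 10 markers, the astrocyte list was higher, at 6287 to 19090 CPM in kind 3 and 3829 to 6120 CPM in kind 1. A sum can rest on 1 marker, and the direction of each marker is not given here. The part of this list in the kind 3 values was not tested.

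Turning to the 49 libraries of kind 1, the library that stands apart is described by its values. It and the next one were picked by their mean over these genes, in which other subunits are the majority, so the counts follow in part from that choice. Its value was the lowest of the 49 in 69 of 92 respiratory chain genes, beside 11% of 18749 genes. That held for 56 of 59 other subunits and for 8 of 19 core genes. The median difference from the other 48 libraries was -1.48 for the other subunits and -0.32 for the core genes, and 0.036 over all genes. Cox6c, a small complex IV subunit, had 60.5 CPM in this library and at least 441 CPM in the others, a difference of -3.21. Atp5f1b (917 CPM, a difference of -0.010) and Sdha (185 CPM, -0.023) were at the usual level. In related lists it was the lowest of the 49 in 5 of 6 transport genes (median difference -0.81), in 2 of 3 chain genes outside the symbol rule (-1.58) and in 13 of 31 assembly factors of complexes II to V (-0.32). It was the lowest in 4 of 15 complex I assembly factors (-0.143) and in 3 of 13 mitochondrial regulators (-0.314). Not all related lists were low, with 1 of 17 tricarboxylic acid cycle genes (-0.107) and 0 of 16 glycolysis genes (0.079). This library had the highest summed oligodendrocyte marker level of the 49 (78700 CPM, range from 33620) and the lowest erythroid one (53.1 CPM, median 502). Its 11 oligodendrocyte markers went both ways, with a median difference of 0.132 from the other libraries (-0.926 to 1.055). Whether these levels bear on its respiratory chain values was not tested.

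**Figure D4:**
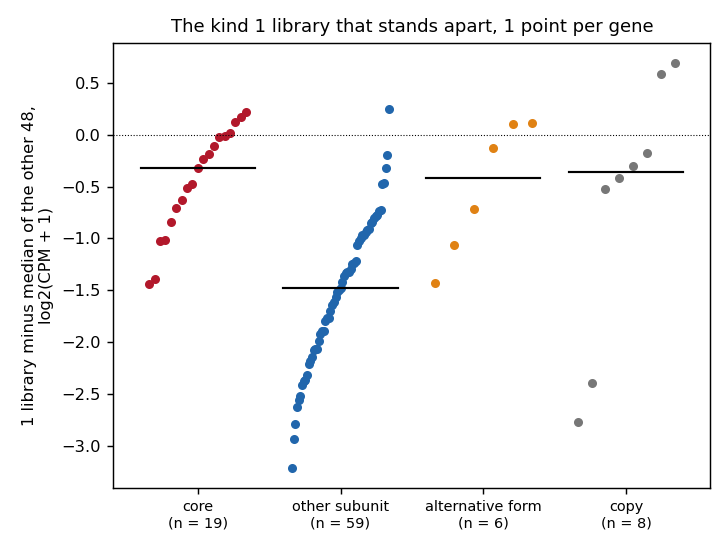
The library of kind 1 that stands apart minus the median of the other 48 libraries, in log2(CPM + 1), 1 point per gene for 92 respiratory chain genes by class; black bars are class medians. Other subunits reach down to -3.21 with a median of -1.48, and core genes lie between -1.43 and 0.22.

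At the upper end, a library of series D had the highest mean (7.74). It was the highest of the 49 in 46 of the 92 genes, beside 8.05% of all genes: in 37 of the 59 other subunits and 5 of the 19 core genes. The median difference from the rest was 0.73 for the other subunits and -0.094 for the core genes. Its Ndufs1, the largest subunit of complex I, was the lowest of the 49 at 29.08 CPM, where the median was 91.9 CPM. It had the lowest summed oligodendrocyte marker level of kind 1 (33620 CPM). The 11 markers of that list went both ways, with a median difference of -0.199 from the rest (-1.245 to 0.561).

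Correlations across the 49 libraries, which share a common scaling, are given as a description. The median Pearson correlation over 4186 pairs of respiratory chain genes was 0.48, beside 0.026 over all pairs of genes. It was 0.80 among other subunits, 0.48 among core genes and 0.23 between a core gene and another subunit. Without the library that stands apart the median over the pairs of respiratory chain genes was 0.34, beside 0.028 over all pairs. The values by class were then 0.65, 0.52 and 0.066. Named genes outside the set whose level followed the mean of the respiratory chain genes most closely over the 49 libraries were Nedd8 (r = 0.96), Nop10 (0.95), Higd1a (0.94), Txn1 (0.94) and Ppia (0.94). These correlations are given only with the library that stands apart included, so how far they rest on it is not shown.

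How the spread of these genes over kind 1 compared with that of other genes depended on the library that stands apart. The median SD was 0.289 log2 units for the 92 genes, beside 0.290 over all genes, and it was 0.217 without that library, beside 0.282. Residual SDs were taken relative to a smooth curve of SD against mean level. Their median over the 92 genes was 0.046, and 60 of the 92 lay above the curve, beside 49.6% of all genes. Without that library the median was -0.0045 and 38 of the 92 lay above it, beside 49.6%. The largest residual SDs were those of Ndufa10l1 (0.587), Atp5mkl1 (0.345), Atp5mk (0.344), Cox6c (0.30), Atp5mg (0.283) and Ndufb1 (0.256). For Cox6c most of it came from the library that stands apart, since without it the value was 0.057. Ndufa10l1, a copy of the complex I gene Ndufa10, kept 0.602 without it and ranged from 0.475 to 17.2 CPM. Among the smallest residual SDs were those of Cox6b2 (-0.108), Sdhb (-0.075), Ndufv1 (-0.075) and Ndufb11b (-0.072). None of the 92 had 2 separated levels (neighbouring sorted values 1 log2 unit or more apart, and 5 or more libraries on either side), beside 0.203% of all genes.

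Number series and depth gave 0 called differences in these genes, which does not show that none exist. Between the 5 series with at least 6 libraries of kind 1, limma's F test called 0 of 92 (0 at an unadjusted p under 0.05), beside 1.71% of 18749 genes. The means over the 92 genes overlapped widely, with medians from 7.24 in series C to 7.30 in series D. On the log10 library total, limma's slope called 0 rising and 0 falling (0 and 0 unadjusted), beside 0.0% and 0.0107%.

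Levels of 3 marker sets for particular neuron types were likewise without a called slope. With the RMTg inhibitory score (the mean z-scored level of its markers) limma called 0 rising and 0 falling (1 and 1 at an unadjusted p under 0.05), beside 0.016% and 0.00534% of genes. With the fast-firing neuron score, from Pvalb, Kcnc1 and others, it called 0 and 0 (1 and 1 unadjusted), beside 3.15% and 1.63%. With the dopaminergic score it called 0 and 0 (3 and 3 unadjusted), beside 3.02% and 4.64%. These counts do not show that no relation exists.

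With totals as the scaling, slopes on the oligodendrocyte score were called in both directions. 42 of 92 genes fell as the oligodendrocyte score rose, beside 8.89% of 18738 genes, and 8 rose, beside 16.9% (adjusted p under 0.05, limma, n = 49). Of the 42, 39 are other subunits, 2 are copies (Cox7a2l2 and Atp5mkl1) and 1 is a core gene, Atp5f1e. Of the 8 that rose, 7 are core genes and the eighth is Ndufa10. The median slope over the 19 core genes was 0.046 log2 units per SD of the score, and over the 59 other subunits -0.12, beside 0.016 over all genes. Markers of other cells rose with the same score, 7 of 9 endothelial, 5 of 10 mural, 4 of 9 microglial and 4 of 10 astrocyte genes, and their part in these slopes was not tested.

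Among the genes that rose were Sdha (0.17 ± 0.034, SE, adjusted p = 0.000282), Ndufs1 (0.19 ± 0.044, adjusted p = 0.00108), Ndufv1, which binds NADH (0.086 ± 0.021, adjusted p = 0.00232), Uqcrc1 (0.092 ± 0.025, adjusted p = 0.00526) and Atp5f1b (0.098 ± 0.031, adjusted p = 0.0141), all from limma with n = 49. Those that fell were led by Atp5if1 (-0.17 ± 0.034, adjusted p = 0.000208), Atp5f1e (-0.21 ± 0.043, adjusted p = 0.000389), Atp5me (-0.24 ± 0.051, adjusted p = 0.000465), Ndufc1 (-0.13 ± 0.031, adjusted p = 0.00106) and Ndufs6 (-0.16 ± 0.037, adjusted p = 0.00109). Atp5me ranged from 87.3 to 747 CPM, its ends being the library that stands apart and the library of series D with the highest mean. Ndufs1 ranged from 29.08 to 123.7 CPM, its lowest value being that same library of series D.

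The counts were like these without those libraries, but the count of falling genes depended on the scaling. Without the library that stands apart 40 fell and 10 rose, beside 8.29% and 16.6% of genes. Without it and the library of highest mean 29 fell, beside 7.67%, and 9 rose, beside 13.2%. With median-of-ratios size factors 4 fell (Atp5if1, Atp5me, Ndufb7 and Ndufb3l3), beside 9.95% of genes, and 7 rose, beside 9.17%. The count of falling genes was then below the background and that of rising genes near it, although 55 of the 59 other subunits kept a negative slope and 15 of the 19 core genes a positive one.

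The astrocyte score gave called slopes in core genes and in other subunits, and their number depended on which libraries were used. Markers of other cells moved with this score too: 6 of 11 oligodendrocyte, 5 of 9 microglial, 3 of 9 endothelial and 3 of 12 dopaminergic genes rose, and 4 of 7 fast-firing neuron genes fell. Their part in the slopes was not tested. 20 respiratory chain genes rose, beside 15.1% of 18739 genes, and 2 fell, beside 15.8%. The share of risers is near the background for the other subunits (9 of 59) and larger for the core genes (11 of 19). Atp5f1a, the ATP synthase alpha subunit, rose by 0.14 ± 0.028 (SE) per SD (adjusted p = 0.000183, limma, n = 49), and Sdhd by 0.16 ± 0.033 (adjusted p = 0.000192). Atp5pb, Uqcrc2 and Sdhc rose by 0.13 each. Both that fell are copies, Atp5mc2l1 (-0.27 ± 0.051, adjusted p = 0.00012) and Ndufb3l3 (-0.20 ± 0.055, adjusted p = 0.00378). Without the library that stands apart 10 rose and 4 fell, beside 14% and 16.3%, of which 8 risers were core genes. Without the 5 libraries of lowest median correlation with the others 2 rose, beside 4.73%. With median-of-ratios scaling 53 rose, beside 18.9% of genes, and 2 fell, beside 17.2%.

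Slopes on the neuronal score, from markers shared by most neurons, were called at about the background share. 5 of 92 rose, beside 6.13% of 18739 genes, and all 5 are core genes: Atp5f1b (0.12 ± 0.030, SE, adjusted p = 0.0102), Ndufv1 (0.072 ± 0.022), Atp5f1d (0.087 ± 0.027), Uqcrc1 (0.079 ± 0.026) and Atp5f1a (0.093 ± 0.031), from limma with n = 49. Cox8b fell, by -0.25 ± 0.061 (adjusted p = 0.00959), beside 2.91%. With median-of-ratios size factors its slope was -0.093 ± 0.072 and was not called (adjusted p = 0.453, limma). Ndufb3l3 was called falling in that setting (-0.195, adjusted p = 0.0139, limma). With the number series as a covariate limma called 0 rising (6 at an unadjusted p under 0.05, and 7 without the covariate), beside 1.73% of genes.

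Mural cells, the pericytes and smooth muscle cells of vessels, are where Cox4i2 and Higd1b are known to be expressed in brain. Cox4i2 rose with the mural score, by 0.15 ± 0.045 (SE, adjusted p = 0.0348, limma, n = 49), and by 0.13 without the library that stands apart (adjusted p = 0.0492). In all, 4 of 92 rose, beside 5.07% of 18739 genes, a share at the background, and the others were Ndufs8 (0.12), Ndufa9 (0.10) and Atp5f1c (0.093). The test called 0 falling (1 at an unadjusted p under 0.05), beside 1.05%. Without the library that stands apart 5 rose and 6 fell, beside 6.69% and 2.41%, the 6 all being other subunits such as Cox7b and Cox7c. Without that library and the one of highest mean 7 rose, beside 10.8%, and 20 fell, beside 3.69%, so the mural counts rest on which of these libraries are used. Among other markers, 6 of 9 endothelial and 5 of 11 oligodendrocyte genes rose with the mural score, and their part was not tested. Leaving out the 2 libraries of most extreme mural score gave 0 risers, beside 0.934% of genes.

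Within kind 1 the share of the dominant pair, from 1.41% to 5.50%, gave called slopes at about the background share. 13 fell with it, beside 11.8% of 18855 genes, and 5 rose, beside 9.02%, so neither count is far from its background. Of the cell markers, 5 of 11 oligodendrocyte, 3 of 9 endothelial and 3 of 10 mural genes fell and 4 of 11 RMTg inhibitory genes rose, and their part was not tested. Of the 13, 9 are core genes and 4 are other subunits. All 4 complex II genes were among them: Sdha (-0.17 ± 0.032, SE, adjusted p = 0.000132, limma, n = 49), Sdhd (-0.14), Sdhc (-0.098) and Sdhb (-0.069). Ndufs1 (-0.20), Atp5f1c (-0.12) and Ndufa9 (-0.11) fell too. Risers were Ndufb11b, Atp5f1e (0.17), Cox7a1 (0.12), Ndufs5 (0.11) and Ndufs6 (0.11). Without the library that stands apart 20 rose, beside 9.86%, and 14 fell, beside 13.1%. Without the 2 libraries of most extreme share 1 rose, beside 6.70%, and 13 fell, beside 7.41%.

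**Figure D5:**
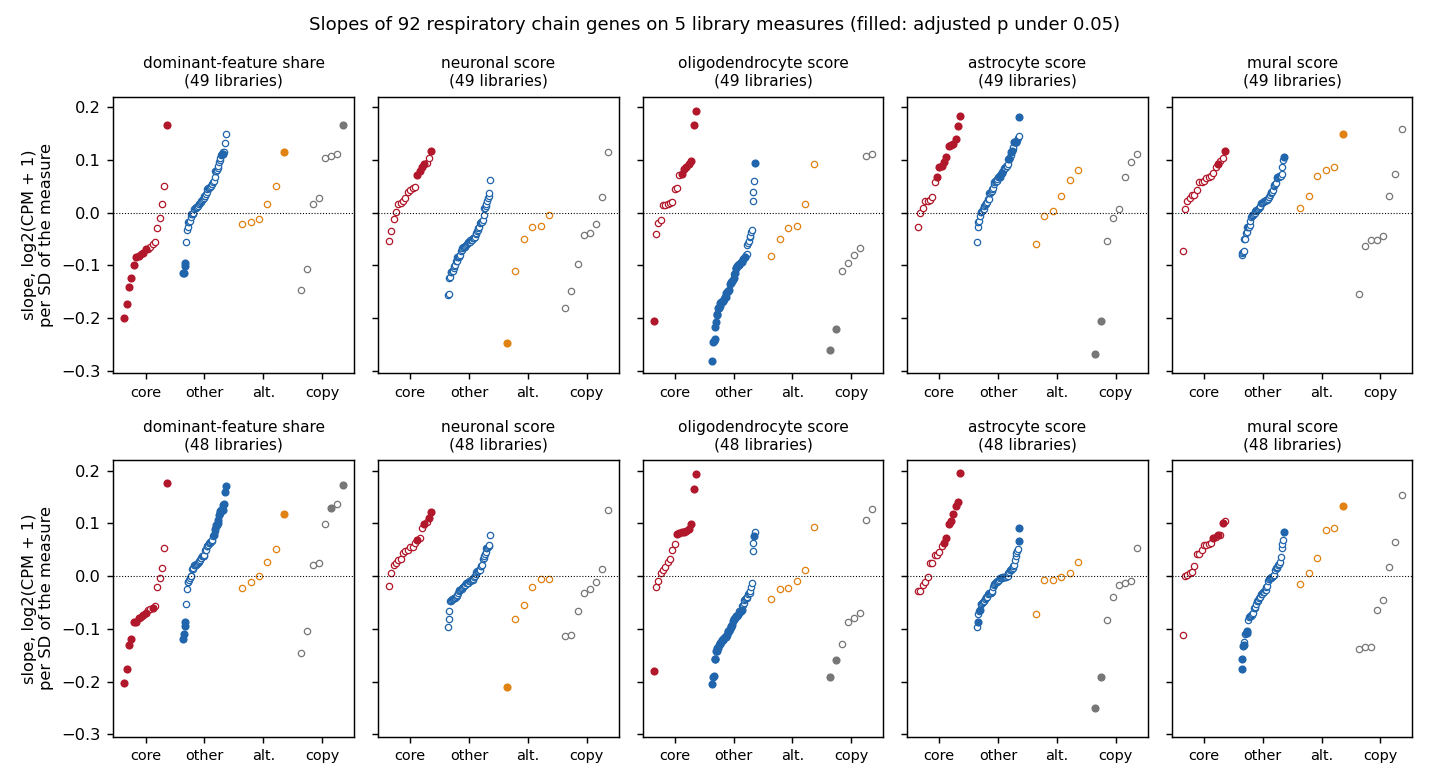
Slopes of the 92 respiratory chain genes on 5 library measures over the 49 libraries of kind 1 (top) and over 48 without the library that stands apart (bottom), in log2(CPM + 1) per SD, by class (alt., alternative form; copy, further copy of a subunit gene); filled points have an adjusted p under 0.05. On the oligodendrocyte score core genes lie mostly above 0 (median 0.046) and other subunits mostly below (median -0.12), in both rows, while the astrocyte panel shifts down for the other subunits in the lower row.

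Other genes of mitochondrial energy supply were tested on the same measures. With the oligodendrocyte score 12 of 17 tricarboxylic acid cycle genes rose and 0 fell (limma), beside 16.9% and 8.89% of all genes, among them Cs, citrate synthase (0.20), and Idh3a (0.14). The same list went down with the share of the dominant pair, where 12 of 17 fell and 0 rose, beside 11.8% and 9.02%, led by Idh3a (-0.17), Suclg1 (-0.11) and Pdhb (-0.14). Of 15 complex I assembly factors 5 rose and 2 fell with the oligodendrocyte score, and of 31 assembly factors of complexes II to V 8 rose and 3 fell, with Lyrm7 rising by 0.17 and Cox17, a copper chaperone, falling by 0.18. Ndufab1, the acyl carrier subunit of complex I that the symbol rule leaves out, fell by 0.14, and Cyc1 and Cycs had no called slope.

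With the neuronal score 11 of 16 glycolysis genes and 6 of 17 tricarboxylic acid cycle genes rose and 0 fell, beside 6.13% and 2.91% of all genes, led by Gpi (0.16), Pgam1 (0.11), Pkm (0.14), Dlst (0.093), Idh3g (0.10) and Ogdh (0.075). With the astrocyte score, where 15.1% of all genes rose and 15.8% fell, 9 of 17 tricarboxylic acid cycle genes rose, Suclg2 most clearly (0.26 ± 0.026, SE, adjusted p = 1.62e-09, limma, n = 49), and 4 of 6 transport genes rose, among them Vdac2 (0.10), Vdac3 (0.11) and Slc25a5 (0.12). Of 13 regulators of mitochondrial genes, 4 rose with the astrocyte score, among them Gabpa (0.16) and Tfam (0.12), and 3 fell, among them the mitochondrial helicase gene Twnk (-0.14). Yy1 fell with the oligodendrocyte score (-0.067) and rose with the share of the dominant pair (0.087). Between kinds, all 17 tricarboxylic acid cycle genes and all 16 glycolysis genes were lower in kind 2, with median differences of -2.43 and -2.83. Over all genes 78.5% were lower, with a median of -0.88. Without the dominant features in the totals the medians were -1.68 and -2.01, beside -0.315 over all genes.

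Promoters of these genes are known for sites of NRF1, of ETS factors such as GABP, and of YY1. In RefSeq (GRCr8), 94 of the 111 genes have an entry of 300 bases, from 250 before to 50 after the start. The NRF1 motif, searched as GCGC, any base, then TGCGC, was found on either strand in 15 of 94 (16%), beside 4.25% of 33469 promoters in the table. CCGGAAG, the core ETS motif, was in 22.3%, beside 8.75%, and AAGATGGC, a YY1 motif, in 17%, beside 3.17%. GGGCGG (36.2% and 33.1%), CCAAT (34% and 37.5%) and TATAAA (12.8% and 14.2%) were near the share of all promoters. None of the 17 copies with an entry held the NRF1, ETS, YY1 or GGGCGG letters.

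Core genes and other subunits both held these letters. The NRF1 motif was in 3 of 18 core and 12 of 52 other promoters, and the ETS motif in 6 of 18 and 15 of 52. Among genes with an entry, the NRF1 motif was found in 2 of the 7 that rose and 7 of the 36 that fell with the oligodendrocyte score. TATAAA was in 0 of 18 core and 7 of 52 other promoters. The 100 bases before the start are printed, 5′ to 3′ on the gene's strand, for a pair of core genes that rose with that score (Sdha, Uqcrc1), for Ndufa5 and Atp5me, which were among the subunits that fell with it, and for Ndufb11 and Ndufb11b, which differed between kinds. Capitals mark NRF1 and ETS motifs on either strand.
Sdha, chr1:30764453-30764552, plus strand: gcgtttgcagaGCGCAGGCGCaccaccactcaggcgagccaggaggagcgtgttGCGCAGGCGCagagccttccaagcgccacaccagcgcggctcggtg
Uqcrc1, chr8:118468123-118468222, plus strand: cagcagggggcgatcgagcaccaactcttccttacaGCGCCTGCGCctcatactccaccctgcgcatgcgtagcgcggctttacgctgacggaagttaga
Ndufa5, chr4:53971236-53971335, minus strand: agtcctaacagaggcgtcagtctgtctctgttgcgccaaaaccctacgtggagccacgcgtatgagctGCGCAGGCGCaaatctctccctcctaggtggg
Atp5me, chr14:1464760-1464859, plus strand: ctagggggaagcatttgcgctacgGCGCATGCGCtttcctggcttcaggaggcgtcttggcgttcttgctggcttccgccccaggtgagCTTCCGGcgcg
Ndufb11, chrX:4126217-4126316, plus strand: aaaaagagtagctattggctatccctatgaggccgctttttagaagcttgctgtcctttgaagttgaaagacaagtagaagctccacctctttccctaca
Ndufb11b, chr7:115384868-115384967, plus strand: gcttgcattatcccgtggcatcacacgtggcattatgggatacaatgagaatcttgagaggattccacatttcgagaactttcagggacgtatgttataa

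Sdha holds the NRF1 letters at 2 places and Atp5me at 1 place, where they read the same on both strands, beside an ETS motif next to the start. Uqcrc1 and Ndufa5 hold them at 1 place each. Ndufb11 and Ndufb11b hold none in these windows. Genes that rose and genes that fell with the oligodendrocyte score thus share these letters, and a match is a description of the sequence, not of binding.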

How the data were processed

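The authors deposited log2 values for 38354 genes in 92 libraries, made with kallisto 0.48 per the submitters' processing notes. Other upstream steps and the build are not given in the sources used here. Below 20 on the linear scale, 49.8% of the nonzero values lay within 0.01 of a whole number, so each value was read as log2 of an estimated count plus 1, with no depth or length normalization. The linear values were divided by the library total, multiplied by 1000000 (CPM) and taken as log2(CPM + 1). A gene was kept where this was 1 or more in 20% or more of the libraries (18749 genes in kind 1). Kind 3 has Nif3l1 at 20% or more of counts, and kind 2 has LOC120093067 plus Zfp532 at 10% or more. A gap over 50000 between identifiers starts a number series. Labels of some libraries note an identifier corrected after a genotype mismatch; they were kept.

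Slopes and series differences were fitted with limma 3.58.1 (R 4.3.3), with variances moderated along a mean trend, Benjamini-Hochberg adjustment over all genes and a threshold of 0.05. A score is the mean z-scored level of a list's markers, whose own genes were left out; the slope is per SD of the measure. The share of the dominant pair entered as log2, with totals without Nif3l1, LOC120093067 and Zfp532. Both procedures were tested on simulated libraries. Named are the subunits with tissue forms, some related subunits and complex II. Up to 5 called genes of smallest p per test and direction are named, and up to 3 pathway genes per list. The 6 most and least negative between kinds and the 6 largest and smallest residual SDs are named too. Others were chosen after their values were seen. Some genes that this rule names are not reported here. The genes, lists and tests were chosen with earlier results of these data known. Count tests were not used because the table is on a log scale. Alternatives were other scalings, pseudocount 0.5, no filter, covariates and left-out libraries. Protein features, planned for comparison, were not analysed here.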

Additional observations from a re-analysis of the deposited data

How the results depend on the processing

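Counts are of respiratory chain genes called by limma unless stated, the value in the report comes first, and the cause of each change was not tested. The share of all genes called also changed between settings. A count printed with no share is not set against that background and says nothing particular to these genes. Settings that leave out the library that stands apart or the library of highest mean, join that to the number series as a covariate, use kind 2 alone or use series B or C alone were chosen after seeing the data. The median difference between kinds 2 and 1 kept its direction in every setting run. Genes with all of kind 2 below all of kind 1 (11) numbered 7 with totals without the dominant features (beside 2.99% of all genes), 3 with median-of-ratios size factors, which rest on 949 genes above 0 in all libraries (1.78%), 18 in series B (23.6%) and 31 in series C (29.3%), where both series counts are near or below their background. The median residual SD (0.046) was -0.0045 without the library that stands apart. Rises with the share of the dominant pair numbered 5, beside 9.02% of all genes. They were 3 without a filter and 22 without the 5 libraries of lowest correlation with the others. Without the library that stands apart they were 20, beside 9.86%, and without it and the library of highest mean 20. With the number series as a covariate they were 10, and 26 when the library that stands apart was left out as well. Without the 2 libraries most distant from the median of the share 1 rose. In kind 2 rises numbered 1, 1 with the covariate and 0 without its 2 libraries of highest mean, beside 5.57%, 6.15% and 0.376% of genes. Falls (13 in kind 1) numbered 73, 73 and 0 in kind 2, beside 17.1%, 19.6% and 0.0791%. The slopes of 4 named risers were negative in kind 2, with the covariate, and without those 2 libraries: Atp5f1e (-0.73, -0.77 and -0.26), Cox7a1 (-0.35, -0.34 and -0.080), Ndufs5 (-0.67, -0.70 and -0.23) and Ndufs6 (-0.76, -0.78 and -0.33).

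Rises with the neuronal score (5) numbered 3 with median-of-ratios factors, 2 without a filter, 3 without the 5 libraries of lowest correlation, 2 without the 2 farthest libraries, 2 with totals without the dominant features, and 0 with the covariate, with or without the library that stands apart. Falls (1) numbered 2 without the 2 farthest libraries and 0 with the covariate and without the library that stands apart. With median-of-ratios factors Ndufb3l3 was called falling and Cox8b was not. With the dopaminergic score (0) 2 were called with median-of-ratios factors, 1 without the library that stands apart and that of highest mean, and 3 without the 2 farthest. Rises with the oligodendrocyte score (8) numbered 5 with the covariate and without the library that stands apart, and falls (42) numbered 4 with median-of-ratios factors. Rises with the astrocyte score (20) numbered 53 with median-of-ratios factors, 2 without the 5 libraries of lowest correlation, 10 without the library that stands apart, 11 without it and that of highest mean, 11 with the covariate, 10 without the 2 farthest, and 9 with the covariate and without the library that stands apart. Falls numbered 2, beside 15.8% of all genes, and 4 without the library that stands apart, beside 16.3%. They were also 4 without the 5 libraries, without the library that stands apart and that of highest mean, and without the former and with the covariate. Rises with the mural score (4) numbered 2 without a filter, 7 without the library that stands apart and that of highest mean, 1 with the covariate, 0 without the 2 farthest, and 1 with the covariate and without the library that stands apart. Falls with the mural score numbered 0, beside 1.05% of all genes, and 6 without the library that stands apart, beside 2.41%. They were 9 without the 5 libraries, 20 without the library that stands apart and that of highest mean, and 6 without the former and with the covariate.

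For the 37 slopes of named genes, 352 values kept direction and call, 73 kept direction and lost the call, and 12 reversed, all in kind 2. Series, depth, the RMTg inhibitory score and the fast-firing score called 0 genes in every setting run. Many of these genes had few counts in kind 3. No paired analysis was possible because the labels give 1 group.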
